A study of Mus musculus with 8 samples.

Results

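Potassium channel genes outside the Kv1 (Kcna, Kcnab) and Kv3 (Kcnc) families were examined in nuclei of GABAergic neurons from mouse cortex. The members were taken by name, as every symbol of the count files that belongs to the families Kcnb, Kcnd, Kcne, Kcnf, Kcng, Kcnh, Kcnip, Kcnj, Kcnk, Kcnma, Kcnmb, Kcnn, Kcnq, Kcns, Kcnt, Kcnu and Kcnv. This gave 78 of the 55341 genes listed. Of these, 63 passed the filter on low counts and 15 did not.

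The animals compared were juvenile mice, all made hypothyroid by propylthiouracil (PTU), a drug that stops the thyroid from making hormone, through their mothers during gestation. Mice 9 to 12 had no further treatment (PTU, n = 4). Mice 13 to 16 (PTU+TH, n = 4) were injected with thyroid hormone (TH) into the peritoneum 24 h before collection of the brain. All animals carried a Cre-dependent nuclear fluorescent reporter restricted to GABAergic neurons, the inhibitory neurons of the cortex, and each library came from the sorted nuclei of 1 cortex. No animal with normal thyroid function was analysed here, so every level is that of a hypothyroid animal with or without the single injection. The Cre driver and the age in days are not given in the sources used here.

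Potassium channels carry outward current that repolarises the membrane after a spike, sets the resting potential and limits firing. The pore-forming subunits fall into voltage-gated, calcium- or sodium-activated, inward-rectifier and 2-pore-domain classes, and many work with auxiliary subunits that change their gating or their transport to the membrane. In cortical inhibitory neurons they shape spike width, adaptation and the response to transmitters that act through G proteins. Because the RNA came from nuclei, a level here is that of nuclear transcript, and in bulk samples fewer cells of a type and less RNA per cell cannot be told apart.

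The libraries held 21.8 to 29.1 M counts. Markers of GABAergic neurons (Gad1, Gad2, Slc32a1 and others) summed to 2110 to 2660 CPM and those of excitatory neurons to 37.1 to 120 CPM, where CPM is the count scaled by library size and TMM factor. Dlx1 and Dlx6 of the first list, Gfap of the astrocyte list and P2ry12 of the microglia list were listed at 0 in all libraries, and each lies wholly inside the body of another gene. Counts of 4 Y-linked genes were 0 in PTU+TH mice 15 and 16 and summed to 7960 to 11548 in the other 6 libraries. The labels give no sex, so sex and treatment are partly confounded. None of the members was called in a fit to the 6 libraries with Y-linked counts (edgeR), where 0.318% of all 18259 genes tested were called. An unadjusted p under 0.05 was reached there by 10 of 68 members (14.7%) and by 8.52% of all genes. Some sums of markers of GABAergic neuron classes differed between the groups. Those of the SST class were 368 to 507 CPM in PTU and 316 to 359 CPM in PTU+TH, but of its 3 genes only Calb1 (means 198 and 120 CPM) was apart between the groups. Sst (means 233 and 219 CPM) and Chodl (4.24 and 5.28 CPM) overlapped. Those of the LAMP5 class were 1030 to 1230 and 845 to 1020 CPM and came mostly from Reln, and each of Reln, Lamp5 and Ndnf overlapped on its own. The PV class (52.9 to 81.0 and 63.0 to 80.9 CPM) and the VIP class (135 to 214 and 125 to 142 CPM) overlapped. Of these markers Calb1 (SST) and Htr3a (VIP) were called lower and Syt2 (PV) higher in PTU+TH. None of the 3 was called in the 6 libraries with Y-linked counts (edgeR adjusted p 0.103, 0.334 and 0.13). Their log2 fold changes there were -0.712, -0.988 and 1.15, against -0.726, -1.11 and 1.15 in all 8 libraries. Of the exon bases of Htr3a, 25.1% are free of other genes. The part of such class differences in the results on channel genes was not tested. Long genes moved together from mouse to mouse, and the 601 tested genes with a body over 300 kb had median log2 deviations from the mean of the 8 libraries of -0.415, -0.203, 0.321 and 0.194 in PTU mice 9 to 12 and of -0.108, -0.097, 0.0688 and 0.261 in PTU+TH mice 13 to 16. Between the groups these long genes had a median log2 fold change of 0.02. The range over the mice of this median was wider in PTU than in PTU+TH. A separate fit, chosen after these values were seen, took each library's trend with gene length as an offset.

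**Figure D1:**
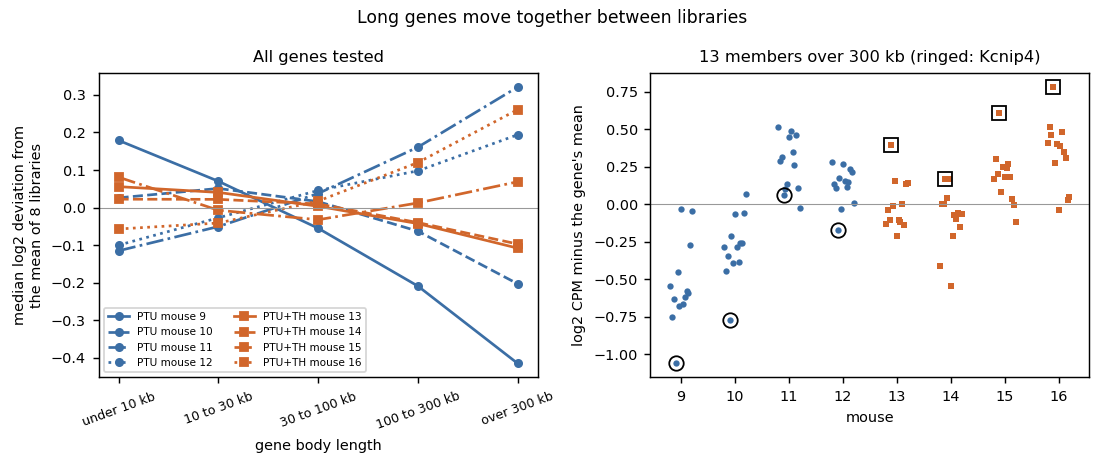
Left, the median log2 deviation of all tested genes from the mean of the 8 libraries (y axis) for 5 classes of gene body length (x axis), with 1 line per mouse. Right, log2 CPM minus the gene's own mean for the 13 members with a body over 300 kb, by mouse, with Kcnip4 in open rings and squares. Kcnip4 lies below most of the other long members in the 4 PTU mice and above most of them in the 4 PTU+TH mice.

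Over all genes 2.12% were called at an adjusted p under 0.05 (edgeR quasi-likelihood test, Benjamini-Hochberg over 17355 genes), 1.49% as higher and 0.634% as lower in PTU+TH. Of the 63 members tested, 2 were called (3.17%). These were Kcnh4, which fell, and Kcnk1, which rose. An unadjusted p under 0.05 was reached by 17 members (27%), against 12.8% of all genes. The 4 libraries of each group did not overlap in 10 members (15.9%), 7 higher and 3 lower in PTU+TH, against 8.71% of all genes. The median log2 fold change (PTU+TH over PTU) was 0.05 over the members tested and -0.01 over all genes tested, with 35 members above and 28 below 0. With the gene length offset 10 members were called, 7 higher and 3 lower, against 4.03% of all genes. These were Kcnh4, Kcng3 and Kcnn3 among the lower and Kcnk1, Kcnip4, Kcnj6, Kcnj9, Kcnj12, Kcnh7 and Kcnd2 among the higher. In the 6 libraries with Y-linked counts, fitted without the offset, the edgeR adjusted p was 0.773 for Kcnh7, 0.981 for Kcnd2, 0.403 for Kcng3 and 0.458 for Kcnj12. Their log2 fold changes there were 0.371, 0.118, -0.591 and 0.377, against 0.457, 0.347, -0.617 and 0.415 in all 8 libraries without the offset. Those of the other called members are given with their values.

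**Figure D2:**
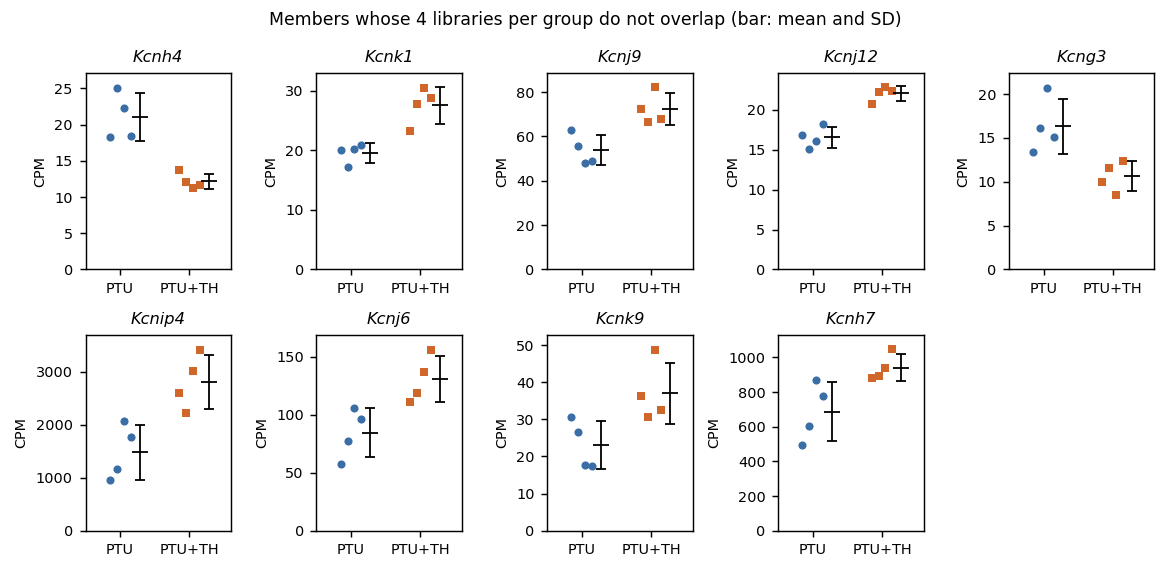
CPM (y axis, from 0) in each of the 4 PTU and 4 PTU+TH libraries for 9 of the 10 members whose groups do not overlap, in order of their unadjusted p. Points are single mice and bars are the mean and SD. Kcnh4 and Kcng3 are lower and the other 7 are higher in PTU+TH.

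Promoter sequence is shown for the member with the smallest p, Kcnh4, and for the most abundant member, Kcnip4. Each is the 250 bases before a gene start in RefSeq (build GRCm38.p6), written 5′ to 3′ on the strand of the gene in lower case. Capitals mark AGGTCA or its reverse complement TGACCT, the half-site that thyroid hormone receptors are known to bind. The window of Kcnh4 is chr11:100759779-100760028 on the minus strand. The windows of Kcnip4 precede a pair of alternative starts, both inside the annotated gene body and on the minus strand. The upstream one is chr5:49285660-49285909 and the downstream one chr5:48599683-48599932.
Kcnh4: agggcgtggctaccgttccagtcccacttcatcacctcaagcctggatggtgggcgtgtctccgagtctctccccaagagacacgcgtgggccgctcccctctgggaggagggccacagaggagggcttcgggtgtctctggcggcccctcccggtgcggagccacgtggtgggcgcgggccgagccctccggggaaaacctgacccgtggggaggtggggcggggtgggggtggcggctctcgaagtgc
Kcnip4 upstream: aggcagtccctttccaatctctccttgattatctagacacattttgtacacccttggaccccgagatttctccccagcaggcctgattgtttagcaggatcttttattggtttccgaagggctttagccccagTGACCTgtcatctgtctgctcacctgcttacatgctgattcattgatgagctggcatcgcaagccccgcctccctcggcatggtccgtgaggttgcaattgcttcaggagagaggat
Kcnip4 downstream: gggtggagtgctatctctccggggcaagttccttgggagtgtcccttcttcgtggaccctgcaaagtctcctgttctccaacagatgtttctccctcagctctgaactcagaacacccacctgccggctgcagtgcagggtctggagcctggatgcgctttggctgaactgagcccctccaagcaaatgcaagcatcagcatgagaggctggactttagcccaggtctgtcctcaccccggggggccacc
The upstream window of Kcnip4 held 1 half-site and the other pair held none. Windows were listed for 56 of the 78 members. Of their 74 windows, 5 (6.76%) held the half-site on either strand, against 14% of 32851 windows of all genes. The members with a match were Kcnf1, Kcnh1, Kcnip4, Kcnj16 and Kcnk10. A match of these letters is a description and not evidence of binding, and these windows cover none of the more distant sequence.

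The Kcnh family holds the EAG, ERG and ELK channels, voltage-gated channels with a slow or subthreshold action on excitability. Kcnh4 (GRCm38, chromosome 11, 100740376 to 100759942), an ELK channel, had 18.3, 25.1, 22.3 and 18.4 CPM in PTU mice 9 to 12 and 13.7, 12.1, 11.2 and 11.6 CPM in PTU+TH mice 13 to 16. Every PTU+TH library lay below every PTU library. The level fell by 0.79 on the log2 scale (SE 0.14, edgeR adjusted p = 0.00883), from 21.0 ± 3.31 to 12.1 ± 1.12 CPM (SD, n = 4 each). The gene shares no base with another gene, and it was called in 16 of 17 alternatives, among them all 8 fits without 1 library. Among the libraries with Y-linked counts (4 PTU, 2 PTU+TH) the log2 fold change was -0.70 (edgeR adjusted p = 0.207).

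The other ELK genes were also below 0 without a call. Kcnh3 had 42.6, 43.6, 37.1 and 27.3 CPM in PTU and 35.3, 22.3, 27.0 and 16.8 CPM in PTU+TH, and the groups overlapped (log2 fold change -0.57 with an SE of 0.21, edgeR adjusted p = 0.251). Kcnh8 averaged 8.42 ± 1.45 and 6.84 ± 1.42 CPM (SD, n = 4 each), with overlap. The ERG gene Kcnh7, the most abundant of the family, went the other way. It had 495, 604, 871 and 777 CPM in PTU and 883, 892, 941 and 1050 CPM in PTU+TH. The groups did not overlap, with mouse 11 of PTU close below the lowest PTU+TH mouse. The test gave a log2 fold change of 0.46 (SE 0.18, edgeR adjusted p = 0.272). Its body of 491 kb falls in the class of long genes, and with the length offset the fold change was 0.43 with an SE of 0.06 (edgeR adjusted p = 0.0012). The ERG genes Kcnh2 and Kcnh6 and the EAG genes Kcnh1 and Kcnh5 were not called and averaged 24.1, 5.23, 160 and 27.5 CPM over the 8 libraries. In Kcnh1 33.2% of the exon bases are free of other genes, so its counts are uncertain.

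Kcnip genes encode KChIPs, calcium-binding subunits that assemble with Kv4 channels and change their gating or their transport to the membrane. Kcnip4 (chromosome 5, body 1140 kb) was the most abundant member of all. It had 948, 1160, 2060 and 1760 CPM in PTU and 2600, 2220, 3010 and 3400 CPM in PTU+TH. The lowest PTU+TH library stood above the highest PTU library, and the gene took 13.1% to 16.2% of the counts of all 78 members in PTU and 20.9% to 23.9% in PTU+TH. Its log2 fold change of 0.92 (SE 0.25) did not pass over all genes (edgeR adjusted p = 0.0892). With the length offset it was 0.89 with an SE of 0.07 (edgeR adjusted p = 9.56e-06).

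Kcnip4 was also set against the other long members. Relative to the median of the 12 other members over 300 kb, Kcnip4 deviated by -0.475, -0.502, -0.243 and -0.317 (log2) in PTU and by 0.466, 0.235, 0.421 and 0.411 in PTU+TH. All PTU mice were below 0 and all PTU+TH mice above 0 on this measure, and the cause of the difference was not tested. In the 6 libraries with Y-linked counts the log2 fold change was 0.70 without a call (edgeR adjusted p = 0.594). Many small gene models lie inside Kcnip4 and 43.1% of its exon bases are free of them, so some of its reads can have been assigned elsewhere.

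The other KChIP genes were not called. Kcnip2 had 90.3, 97.7, 142 and 128 CPM in PTU and 134, 149, 133 and 147 CPM in PTU+TH, so the groups overlapped (log2 fold change 0.30 with an SE of 0.13, edgeR adjusted p = 0.363). Kcnip1 averaged 668 ± 193 and 793 ± 141 CPM in the groups in that order, and Kcnip3 20.8 ± 3.34 and 20.3 ± 4.78 CPM (SD, n = 4 each). Neither was called.

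Among the Kv4 pore subunits, which carry the fast-inactivating A-type current in dendrites, Kcnd2 was the highest. It had 524, 648, 1080 and 968 CPM in PTU and 861, 885, 1090 and 1260 CPM in PTU+TH, with overlap between the groups (log2 fold change 0.35 with an SE of 0.23, edgeR adjusted p = 0.603). Its body is 514 kb long, and with the length offset the fold change was 0.33 with an SE of 0.08 (edgeR adjusted p = 0.0442). Kcnd3 averaged 241 ± 52.3 and 208 ± 48.0 CPM and Kcnd1 23.9 ± 2.74 and 21.8 ± 0.535 CPM (SD, n = 4 each). Neither was called in either fit.

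**Figure D3:**
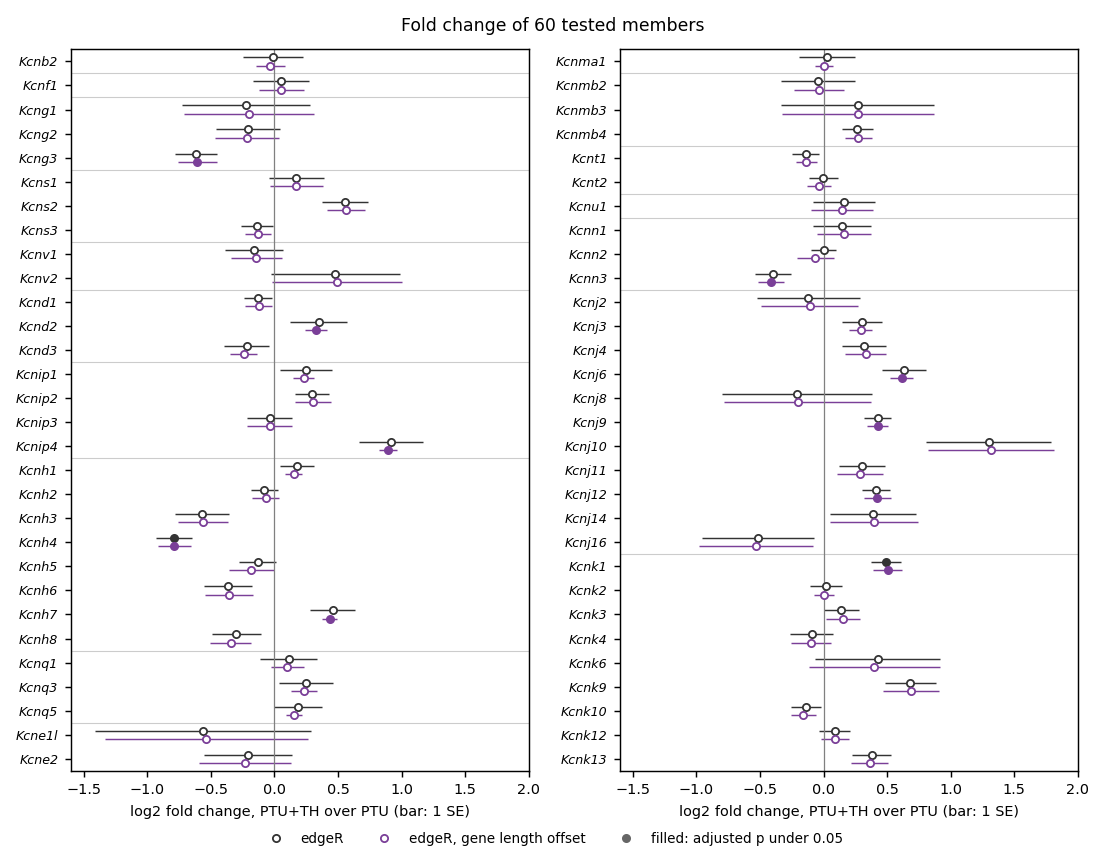
Log2 fold change of PTU+TH over PTU (x axis, bars of 1 SE) for 60 of the 63 members tested, by family, in the edgeR fit (dark) and with the gene length offset (purple). Filled points have an adjusted p under 0.05. Kcnh4 and Kcnk1 are filled in both fits. The offset narrows the bars of most members over 300 kb, such as Kcnip4 and Kcnd2, with little change of their position. That of Kcnn2 is wider with the offset (SE 0.144, against 0.0992).

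Inward rectifiers (Kcnj) pass current near the resting potential. Their summed level was 297 to 390 CPM in PTU and 408 to 521 CPM in PTU+TH, 2 ranges that do not overlap. Only the sums of Kcnj and Kcng were apart between the groups, and those of all other families overlapped. The Kcnj sum came mostly from Kcnj3, Kcnj6 and Kcnj9, with means of 180, 108 and 63 CPM over the 8 libraries. Of 11 tested members, 8 had a fold change above 0. With edgeR 4 had an unadjusted p under 0.05 and 0 were called, against 3 calls with DESeq2 and 0 with limma voom. Over all genes the shares were 12.8% at that unadjusted p and 4.39% called by DESeq2. Among these genes are the GIRK channels, which open on signals from G protein-coupled receptors such as the GABA-B receptor. Kcnj9 (GIRK3) had 62.7, 55.8, 47.9 and 48.8 CPM in PTU and 72.2, 66.6, 82.5 and 67.9 CPM in PTU+TH. Every PTU+TH library was the higher, but the test did not pass over all genes (log2 fold change 0.43 with an SE of 0.11, edgeR adjusted p = 0.0627).

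Kcnj6 (GIRK2) went from 57.8, 77.5, 106 and 96.3 CPM in PTU to 111, 119, 137 and 156 CPM in PTU+TH, again without overlap. Its log2 fold change was 0.63 (SE 0.17, edgeR adjusted p = 0.101). With the length offset both passed, at an edgeR adjusted p of 0.0108 for Kcnj9 and 0.00133 for Kcnj6. Kcnj3 (GIRK1), the subunit that pairs with the others, had 125, 138, 194 and 188 CPM in PTU and 171, 182, 200 and 242 CPM in PTU+TH. Its groups overlapped and its log2 fold change was 0.30 (SE 0.15, edgeR adjusted p = 0.465). Kcnj5 (GIRK4) had 4 to 21 counts per library and was not tested. Without mice 15 and 16, which lacked Y-linked counts, neither Kcnj9 (log2 fold change 0.37, edgeR adjusted p = 0.408) nor Kcnj6 (0.44 and 0.601) was called.

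Of the classical inward rectifiers, Kcnj12 was the tightest within groups. It had 16.8, 15.1, 16.1 and 18.2 CPM in PTU and 20.7, 22.2, 22.9 and 22.4 CPM in PTU+TH, with no overlap (log2 fold change 0.42 with an SE of 0.11, edgeR adjusted p = 0.0761, and 0.0373 with the length offset). In PTU and PTU+TH, in that order, Kcnj4 averaged 12.5 ± 3.04 and 15.6 ± 2.13 CPM, and Kcnj2 2.56 ± 1.44 and 2.37 ± 0.699 CPM (SD, n = 4 each). Both overlapped between the groups, as did Kcnj14, at 1.12 ± 0.233 and 1.47 ± 0.468 CPM. Kcnj11, the pore of the neuronal ATP-sensitive channel, averaged 6.99 ± 1.16 and 8.63 ± 1.43 CPM (SD, n = 4 each) and was not called.

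Kcnj10 and its partner Kcnj16, the main inward rectifiers of astrocytes, and Kcnj8, a channel of pericytes, are known mainly from cells other than neurons. Kcnj10 had 1.17, 2.15, 0.643 and 0.962 CPM in PTU and 2.45, 1.38, 6.45 and 2.05 CPM in PTU+TH. It was highest in mouse 15, where the astrocyte markers also summed highest (366 CPM, against 125 to 259 in the other libraries). The same mouse had the highest sums of markers of oligodendrocytes (173 CPM, against 84.0 to 112), of their precursors (33.0 CPM, against 8.27 to 24.0) and of microglia (30.4 CPM, against 10.0 to 15.2). The 5 oligodendrocyte markers had a median log2 fold change of 0.68, with 4 above and 1 below 0. Kcnj10 itself had a log2 fold change of 1.30 with an SE of 0.49 (edgeR adjusted p = 0.262). Of the 5 tested astrocyte markers 4 were above and 1 below 0, and with edgeR 0 were called and 0 had an unadjusted p under 0.05 (0 calls with DESeq2 or limma voom). Kcnj16 lay between 0.584 and 2.62 CPM, with its highest value in PTU mouse 9. Kcnj8 was highest in PTU mouse 10, at 6.40 CPM against 0.742 to 2.82 in the other libraries. There the markers of endothelium and pericytes also summed highest (215 CPM, against 33.2 to 155). The part of such cells in these levels was not tested.

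The 2-pore-domain genes (Kcnk) encode leak channels that set the resting potential. Kcnk1 (TWIK1; chromosome 8, 125995170 to 126030685) had 20, 17.2, 20.2 and 20.9 CPM in PTU and 23.2, 27.8, 30.5 and 28.8 CPM in PTU+TH. All PTU+TH libraries were above all PTU libraries. It rose by a log2 fold change of 0.49 (SE 0.12, edgeR adjusted p = 0.0486), from 19.6 ± 1.63 to 27.6 ± 3.10 CPM (SD, n = 4 each). The adjusted p lay just under the threshold, and it was no longer called in 6 of the 8 fits without 1 library (highest adjusted p 0.168, without mouse 15; called without mouse 9 or mouse 13). Nor was it called among the libraries with Y-linked counts (log2 fold change 0.385, edgeR adjusted p = 0.457). The same held with RLE scaling, library totals and limma voom, while the log2 fold change stayed between 0.385 and 0.571 over all 17 alternatives. Gm45875 overlaps it and 46.6% of the exon bases of Kcnk1 are free of other genes, which makes its counts uncertain.

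Kcnk9 (TASK3) had 30.5, 26.5, 17.8 and 17.3 CPM in PTU and 36.3, 30.5, 48.7 and 32.5 CPM in PTU+TH. Mouse 9 of PTU and mouse 14 of PTU+TH were level to the precision shown, and otherwise the groups were apart (log2 fold change 0.68 with an SE of 0.20, edgeR adjusted p = 0.131). Markers of excitatory neurons summed to 107, 99.9, 55.4 and 37.1 CPM in PTU and 94.7, 45.7, 120 and 61.4 CPM in PTU+TH, so the mouse with the highest Kcnk9, mouse 15, also had the highest sum. With these markers as a covariate Kcnk9 had a log2 fold change of 0.62 (SE 0.10, edgeR adjusted p = 0.00493). It was called in 3 of 17 alternatives. The 6 libraries with Y-linked counts gave a log2 fold change of 0.536 (edgeR adjusted p = 0.556). Kcnk3 (TASK1) showed overlap, with means of 53.5 ± 9.00 and 58.9 ± 9.29 CPM (SD, n = 4 each).

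The remaining leak channels were not called. Kcnk2 and Kcnk10 (TREK channels) averaged 67.9 and 40.0 CPM over the 8 libraries, and Kcnk4 (TRAAK) and Kcnk6 8.99 and 1.09 CPM. Kcnk12 (THIK2), the highest of the family per kb of exon, had 30.9, 27.6, 35.3 and 29.8 CPM in PTU and 27.7, 33.3, 32.3 and 37.9 CPM in PTU+TH (log2 fold change 0.09, SE 0.12). Kcnk13 (THIK1), known from microglia as well as neurons, averaged 10.9 ± 1.20 and 14.3 ± 2.5 CPM (SD, n = 4 each), with a log2 fold change of 0.38 (SE 0.15; edgeR adjusted p = 0.294). Its highest library was mouse 16, whereas the microglia markers summed highest in mouse 15. All 5 tested microglia markers had a fold change above 0, with 0 called and 1 at an unadjusted p under 0.05 in edgeR (0 calls with DESeq2 or limma voom), and their part in the level of Kcnk13 was not tested.

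Kv2 channels (Kcnb) carry the slow delayed rectifier current, and the Kcnf, Kcng, Kcns and Kcnv genes encode silent subunits that make no channel alone and modify Kv2. Kcnb2 had 329, 393, 684 and 583 CPM in PTU and 438, 361, 538 and 637 CPM in PTU+TH, with the groups intermixed. It was not called. Of the silent subunits, Kcng3 had 13.4, 16.1, 20.7 and 15.1 CPM in PTU and 10.0, 11.6, 8.54 and 12.4 CPM in PTU+TH. Every PTU+TH library was the lower (log2 fold change -0.62 with an SE of 0.17, edgeR adjusted p = 0.084, and 0.0428 with the length offset). The Kcng genes together summed to 20.3 to 27.5 CPM in PTU and 15.3 to 18.8 CPM in PTU+TH.

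Kcns2 went in the other direction, with 16.5, 11.4, 10.0 and 8.62 CPM in PTU and 19.0, 15.8, 17.2 and 16.6 CPM in PTU+TH. Mouse 9 of PTU reached into the range of PTU+TH (log2 fold change 0.56 with an SE of 0.18, edgeR adjusted p = 0.169), and of 17 alternatives the fit without that mouse was the 1 that called it (log2 fold change 0.78, edgeR adjusted p = 0.0102). With the length offset the edgeR adjusted p was 0.0514. The 6 libraries with Y-linked counts gave a log2 fold change of 0.58 (edgeR adjusted p = 0.551). Kcns3, a subunit known in parvalbumin neurons, was the most abundant silent subunit, with 101, 99.8, 145 and 123 CPM in PTU and 92.5, 113, 102 and 116 CPM in PTU+TH. It was not called (log2 fold change -0.14, SE 0.125). Kcnf1 stood at 31.5 ± 10.8 and 32.7 ± 6.55 CPM and Kcnv1 at 8.92 ± 3.01 and 8.03 ± 1.38 CPM (SD, n = 4 each). The remaining silent subunits Kcng1, Kcng2, Kcns1 and Kcnv2 averaged between 0.488 and 4.23 CPM.

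KCNQ channels give the M-current, a slow brake on firing at the axon initial segment. Kcnq5 had 524, 653, 937 and 868 CPM in PTU and 782, 729, 887 and 997 CPM in PTU+TH, with overlap between the groups. Kcnq3 averaged 473 ± 143 and 561 ± 113 CPM (SD, n = 4 each). Neither was called. Kcnq1 averaged 23.5 CPM over the 8 libraries. Of the Kcne genes, small subunits that pair with KCNQ and other channels, Kcne2 and Kcne1l were tested. They averaged 1.27 and 0.553 CPM, and neither was called.

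Calcium- and sodium-activated channels shape the afterpotential that follows a spike. Kcnma1, the pore of the BK channel, had 765, 965, 1590 and 1360 CPM in PTU and 1050, 1110, 1180 and 1430 CPM in PTU+TH. The PTU mice spanned all PTU+TH values. Its log2 fold change was 0.03 with an SE of 0.22. Its subunit Kcnmb2, which inactivates the channel, had 372, 411, 923 and 750 CPM in PTU and 467, 491, 631 and 797 CPM in PTU+TH, again intermixed. Kcnmb4, the neuronal beta subunit, averaged 29.7 ± 4.47 and 35.6 ± 3.17 CPM (SD, n = 4 each). Kcnmb4 had a log2 fold change of 0.26 (SE 0.12, edgeR adjusted p = 0.384). Kcnmb3 averaged 0.695 CPM. The sodium-activated channels Kcnt1 and Kcnt2 averaged 216 and 177 CPM over the 8 libraries, and Kcnu1, known from sperm, averaged 4.20 CPM.

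Among the SK channels, which respond to calcium through bound calmodulin, Kcnn2 was the most even of the abundant members. Its 8 libraries lay between 249 and 298 CPM, with a coefficient of variation of 3.54% within PTU and 8.06% within PTU+TH. Kcnn3 had 22.0, 30.9, 33.9 and 31.4 CPM in PTU and 19.6, 20.8, 23.6 and 25.5 CPM in PTU+TH. Only mouse 9 of PTU lay within the range of PTU+TH (log2 fold change -0.40 with an SE of 0.14, edgeR adjusted p = 0.217). It was called in 2 of 17 alternatives, with the length offset (edgeR adjusted p = 0.0412) and without mouse 9 (0.03). It was not called in the other 7 fits without 1 library (adjusted p up to 0.414). Nor was it called in the 6 libraries with Y-linked counts, where the log2 fold change was -0.545 (edgeR adjusted p = 0.37). Kcnn1 averaged 6.77 CPM.

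Levels of different genes were compared per length, as CPM per kb of merged exons. Kcnip4 led with 591 ± 235, followed by Kcnmb2 with 193 ± 64.4, Kcnd2 with 178 ± 47.0, Kcnip1 with 118 ± 27.4 and Kcnq5 with 104 ± 20.4 (SD, n = 8). The means of Kcnmb2 and Kcnd2, and those of Kcnip1 and Kcnq5, lay closer together than these SDs, which span both groups. Whether they differed within the same libraries was not tested. Per kb of gene body the order was another one, with Kcnj9 (7.15 CPM per kb), Kcnf1 (6.71) and Kcnip2 (5.27) among the highest. Whether introns were counted is not given in the sources used here, so neither order is taken as that of transcript number. In 20 of the 63 tested members the mean was at least 100 CPM, and in 20 it was under 10 CPM. Long members also varied more between mice. With a mean of at least 10 CPM, 12 members over 300 kb had a median coefficient of variation of 29.6% within PTU and 15.8% within PTU+TH, and 31 shorter ones had 16.1% and 12.5%.

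**Figure D4:**
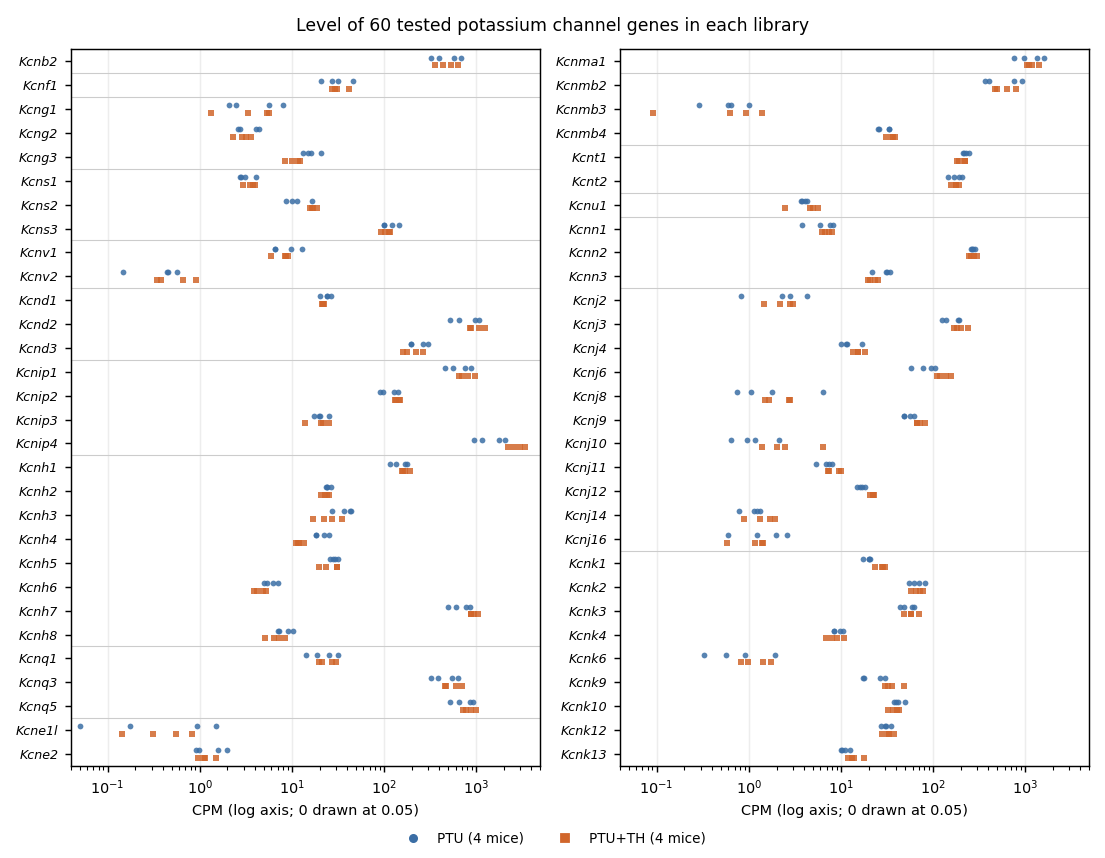
CPM on a log axis (x axis) of 60 of the 63 members tested in each PTU and PTU+TH library, ordered by family. Kcnip4, Kcnma1, Kcnd2, Kcnh7, Kcnq5 and Kcnip1 lie highest, and Kcne1l, Kcnv2 and Kcnmb3 lowest.

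Of the 15 members that were not tested, 5 were listed at 0 in all 8 libraries, namely Kcne3, Kcne4, Kcnj13, Kcnj15 and Kcnmb1. The bodies of these 5 lie wholly inside other genes, and they are the only such members, so their 0 is not read as absence of transcript. The other 10, Kcne1, Kcng4, Kcnj1, Kcnj5, Kcnk5, Kcnk7, Kcnk15, Kcnk16, Kcnk18 and Kcnn4, had at most 22 counts in any library.

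Partner genes were taken from lists written from general knowledge. Of 10 tested partners of Kv2, Kv4 and BK channels, 6 had a fold change above 0 and 1 was called. That gene, Lrrc55, a gamma subunit of BK channels, rose by a log2 fold change of 1.14 (SE 0.22, edgeR adjusted p = 0.0178). Its mean went from 2.19 ± 0.541 to 4.84 ± 0.362 CPM (SD, n = 4 each), but 14.7% of its exon bases are free of other genes. It was not called in the 6 libraries with Y-linked counts, where the log2 fold change was 1.2 (edgeR adjusted p = 0.163). Another gamma subunit, Lrrc38, averaged 6.06 ± 1.27 and 11.3 ± 2.86 CPM (SD, n = 4 each). Its log2 fold change of 0.89 (SE 0.22) missed the threshold (edgeR adjusted p = 0.0561). The groups overlapped, with PTU mouse 9 at 7.29 CPM and PTU+TH mouse 13 at 7.21 CPM. In the 6 libraries with Y-linked counts the log2 fold change of Lrrc38 was 0.683 (edgeR adjusted p = 0.513). The Kv4 partners Dpp6 and Dpp10 were not called, at 1080 and 614 CPM over the 8 libraries. Of 10 tested regulators of GIRK and ATP-sensitive channels, 7 were above and 3 below 0. With edgeR 0 were called and 5 had an unadjusted p under 0.05 (3 calls with DESeq2, 0 with limma voom), where the shares over all genes were 12.8% at that p and 4.39% called by DESeq2. Those 5 were Gabbr2, Rgs6, Rgs7bp and Abcc8, all above 0, and Rgs4, below 0 (log2 fold change -0.795). Gabbr2, a subunit of the GABA-B receptor, averaged 489 ± 78.7 and 664 ± 103 CPM (SD, n = 4 each). Its highest PTU library had 578 CPM and its lowest PTU+TH library 579 CPM. The log2 fold change was 0.44 (SE 0.15; edgeR adjusted p = 0.211, and 0.00292 with the length offset). In the 6 libraries with Y-linked counts it was 0.275 (edgeR adjusted p = 0.788). The 8 tested regulators of KCNQ and SK channels had 0 edgeR calls and 1 unadjusted p under 0.05 (0 calls with DESeq2 or limma voom). The 4 HCN genes and their subunit gene Pex5l had 0 edgeR calls and 2 such p-values (1 call with DESeq2, 0 with limma voom). Of the 12 tested Kv1 and Kv3 genes 3 were called, all higher (Kcna1, Kcnab2 and Kcnab3), where 1.49% of all genes were called higher. None of the 3 was called in the 6 libraries with Y-linked counts (edgeR adjusted p 0.405, 0.263 and 0.241). Their log2 fold changes there were 0.378, 0.351 and 0.417, against 0.54, 0.353 and 0.396 in all 8 libraries.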

How the data were processed

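Nuclear RNA (SMART-Seq v4 and Nextera XT, single-end reads, per the labels' protocols) of sorted cortical GABAergic nuclei was measured in 8 libraries of 1 mouse each. Per the submitters' processing notes, Bowtie2 2.5.3 and the builds mm10 and GRCm38 were used. The authors deposited raw counts of reads per gene symbol, 1 file per library, in which every row names a gene. The counting program, annotation, use of strand and treatment of introns are not given in the sources used here. All 55341 symbols matched GENCODE M21 (GRCm38), from which positions, lengths and overlaps were taken.

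Groups came from the titles. The labels give no litter, sex or batch. The test was that of edgeR 4.0.16, run in R 4.3.3 (filterByExpr, TMM scaling, robust quasi-likelihood test with group as the only term), with two-sided p-values adjusted by Benjamini-Hochberg over 17355 genes and a threshold of 0.05. CPM were computed from the deposited counts after TMM. Alternatives were RLE scaling, library totals, DESeq2 1.42.0, limma voom 3.58.1, 2 other filters, the 6 libraries with Y-linked counts, excitatory markers as a covariate, a threshold of 0.1, leaving out each library, and the gene length offset (lowess, span 0.5), which was chosen after the data were seen. The script was tested on simulated data. Within groups the chi-square of counts per degree of freedom was 8.38 to 72.6 in 12 pairs of libraries, so none was a copy.

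Values in every library are given for each called member and for members with an unadjusted p under 0.05 whose groups do not overlap. They are also given for the highest member per kb of exon in most families, with other members named for their role. The members and lists were chosen with earlier results of these data known, so the counts are descriptions. Family sums carry no test. Single-gene values of some members are not reported here, and the counts over members include them.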

Additional observations from a re-analysis of the deposited data

How the results depend on the processing

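No paired analysis was possible because no mouse number occurs in both groups. Against 2 members called, the count was 1 with RLE scaling and with limma voom, 0 in the 6 libraries with Y-linked counts (edgeR, 10 of 68 members tested there, or 14.7%, at an unadjusted p under 0.05, against 8.52% of all genes), 8 with DESeq2 and with excitatory markers as a covariate, 10 with the gene length offset and 6 at an adjusted p under 0.1. When a library was left out it ranged from 1 (without PTU mouse 10 or 12 or PTU+TH mouse 14, 15 or 16) to 7 (without PTU mouse 9). Against 368 of all genes called, the count was 721 with DESeq2, 58 in the 6 libraries with Y-linked counts (52 higher and 6 lower, against 258 and 110), 582 with the covariate, 699 with the length offset and 601 at 0.1, and from 182 (without PTU+TH mouse 15) to 499 (without PTU mouse 9) when a library was left out. It moved by over 1.5 times without PTU mouse 12 (233) and without PTU+TH mouse 13 (238), 14 (227), 15 or 16 (209). The looser threshold and the 6 libraries differ by construction. Of the remaining differences the cause was not tested.

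The 17 members with an unadjusted p under 0.05 kept their direction in all 17 alternatives. Of the 63 tested, 24 changed direction in at least 1 alternative, and none of these had an unadjusted p under 0.05. With each library left out in turn, the log2 fold change ranged from -0.161 to 0.181 for Kcnb2, -0.358 to 0.0202 for Kcne2, -0.106 to 0.30 for Kcnf1, -0.127 to 0.211 for Kcnma1, -0.215 to 0.224 for Kcnmb2, -0.0435 to 0.0414 for Kcnn2, -0.078 to 0.0742 for Kcnt2 and -0.282 to 0.0735 for Kcnv1. In the 6 libraries it was -0.135 for Kcnf1, -0.0169 for Kcnk12 and -0.116 for Kcnma1. With limma voom it was 0.0112 for Kcnb2, 0.0166 for Kcnmb2 and 0.0033 for Kcnt2, and with the covariate 0.0685, 0.0931 and 0.0317. Kcnn2 was at -1.4e-04 with RLE scaling, -0.0195 with library totals and -0.0643 with the length offset, and Kcnt2 at 9.02e-04 without a filter and 0.00362 with at least 1 CPM in 4 libraries. The median over all genes shifted by -0.002 with RLE scaling and -0.0212 with library totals, and the family sums moved by less than 1 SD with RLE scaling or library totals.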
